A study of Mus musculus with 6 samples.

Results

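The collagen genes of mouse liver were taken as every row of the expression table whose symbol has the form Col, a number, a and a number, with a summed count of at least 10 over the 6 libraries. Of 21899 genes in the table, 44 had such a symbol and 32 met the count. Counts of 0 to 9 left out the other 12, among them Col7a1 with 9 counts in all and Col2a1, Col9a1, Col10a1, Col19a1 and Col26a1 with none. The 32 members comprised 9 fibrillar, 6 basement membrane, 5 beaded, 5 FACIT (fibril-associated), 3 transmembrane, 2 network and 2 multiplexin genes.

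The libraries were made from polyA RNA of whole liver of wild-type C57BL6J mice. One group of 3 libraries came from mice on a methionine- and choline-sufficient diet (MCS) and the other 3 from mice on a diet lacking both nutrients (MCD), in each case for 6 weeks. MCD feeding is a widely used model of steatohepatitis with scarring, and the diet also makes mice lose weight, which limits it as a model of the obesity-linked disease. The labels give neither the age nor the sex of the mice, and do not say that each library came from a separate animal, so the p-values speak only to the variation among these 6 libraries, which may be technical.

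Collagens are extracellular proteins built from 3 chains wound into a triple helix, and each gene encodes 1 chain. Fibrillar chains assemble into the ropes that give scar tissue its strength. Type IV chains form the sheet of basement membranes, type VI chains form beaded filaments near cells, FACIT chains decorate fibrils, and multiplexins sit in basement membrane zones and release fragments such as endostatin. In liver, stellate cells and portal fibroblasts are the classical sources of fibrillar collagen, while hepatocytes are known to express Col18a1.

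Sequence that bears on the control of these genes is shown first. The miR-29 microRNAs repress many collagen mRNAs, and their mature forms, from RefSeq (GRCm38.p6), are printed here 5′ to 3′ with the seed, bases 2 to 8, in capitals.
mmu-miR-29a-3p: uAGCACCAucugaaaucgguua
mmu-miR-29b-3p: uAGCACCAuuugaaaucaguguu
mmu-miR-29c-3p: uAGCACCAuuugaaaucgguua
All 3 share the seed, so the same 7 bases in a 3′ UTR, TGGTGCT, pair with each of them. These 7 bases occurred in the annotated 3′ UTR (GENCODE M21, 1 transcript per gene) of 18 of 32 collagen members, or 56.2%, against 13.9% of 12502 tested genes with such a UTR. Within the members' own range of UTR lengths, 30 to 4708 bases, the share of tested genes was 12.5%. The density was 0.68 matches per kb of collagen UTR and 0.114 per kb over all tested genes. A match is a description of letters, not a shown site of repression, and levels of the microRNAs were not analysed here.

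The matches below belong to collagens that moved in opposite directions on the MCD diet, each given 5′ to 3′ on the gene's strand with the 7 bases in capitals and, in words, its place in the mouse GRCm38 build.
Col1a1 (chr11:94952524-94952545, plus strand, 3′ UTR): tgggaaggaatttcTGGTGCTa
Col3a1 (chr1:45348968-45348989, plus strand, 3′ UTR): tcaaaatgtctcaaTGGTGCTa
Col5a2 (chr1:45374965-45374986, minus strand, 3′ UTR): ttttcttttaatgaTGGTGCTa
Col4a1 (chr8:11199761-11199782, minus strand, 3′ UTR): ccaccgtcacaacaTGGTGCTa
Col6a3 (chr1:90767411-90767432, minus strand, 3′ UTR): gtgacctgtcaataTGGTGCTa
Col27a1 (chr4:63333906-63333927, plus strand, 3′ UTR): cactgtgaaatcgcTGGTGCTc
Col5a3 (chr9:20770503-20770524, minus strand, 3′ UTR): tccaccaggcctttTGGTGCTa
Col1a1, Col3a1, Col5a2, Col4a1 and Col6a3 rose on MCD, whereas Col27a1 and Col5a3 fell. Col5a3 carried 3 matches in a UTR of 785 bases, Col5a1 4 in 2498 bases and Col4a3 4 in 3175 bases. All 6 type IV genes held at least 1 match. The 7 bases were not found in the UTRs used here for Col1a2, Col6a1 and Col12a1, which also rose.

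Promoters of 26 members were in the RefSeq table (GRCm38.p6). The 250 bases upstream of the start of the type I gene Col1a2 and of the type III gene Col3a1 are printed because these mRNAs rose together while their upstream sequence differs in kind.
Col1a2 (chr6:4505368-4505617, plus strand): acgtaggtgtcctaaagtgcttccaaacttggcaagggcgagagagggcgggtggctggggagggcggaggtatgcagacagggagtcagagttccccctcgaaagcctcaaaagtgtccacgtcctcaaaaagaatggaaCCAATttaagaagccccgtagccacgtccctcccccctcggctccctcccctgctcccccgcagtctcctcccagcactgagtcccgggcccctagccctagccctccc
Col3a1 (chr1:45311288-45311537, plus strand): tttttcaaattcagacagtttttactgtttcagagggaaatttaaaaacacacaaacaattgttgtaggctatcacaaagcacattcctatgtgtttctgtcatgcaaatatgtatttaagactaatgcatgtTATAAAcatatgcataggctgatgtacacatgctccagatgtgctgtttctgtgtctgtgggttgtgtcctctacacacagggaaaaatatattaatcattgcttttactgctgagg
The capitals mark CCAAT in Col1a2, starting 109 bases before the start, and TATAAA in Col3a1, starting 117 bases before it. The Col1a2 window was 62.0% G and C and the Col3a1 window 35.2%. Searched on both strands, CCAAT lay in the 250 bases of 8 of 26 members, against 33.8% of all 32851 windows. TATAAA lay in 3 of 26 members against 12.4% of windows, and GGGCGG was found in 17 of 26 members against 32.7%. No 1 of these motifs contains another, and absence from a window says nothing about any factor.

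On the MCD diet most collagens with enough reads to test were higher. Of 25 tested members, 13 rose, 2 fell and 10 did not pass the test. A call means an adjusted p (Benjamini-Hochberg) below 0.05 in edgeR's quasi-likelihood test on counts scaled by TMM, a normalisation that centres most genes, and over all 12599 tested genes 24.7% were called, 14.8% higher and 9.97% lower. The median log2 fold change, MCD over MCS, was 1.72 over the tested collagens and 0.01 over all tested genes. In 17 of the 25 no MCD library fell within the MCS range, and 45.3% of all tested genes were separated in this way. In whole tissue, more cells that make collagen and more collagen RNA per cell cannot be told apart. The MCD libraries spread widely: by TPM (transcript abundance corrected for gene length), MCD replicate 3 was the highest MCD library for 26 of 32 members and MCD replicate 2 the lowest for 25. Every one of the 15 called collagens kept its direction under each alternative tried, but only Col4a1 kept its call under all 15 alternative fits. The number that rose ranged from 2 without MCS replicate 2 to 17 without MCD replicate 2. Both of these fits filtered the genes anew and tested 28 collagens in place of 25.

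**Figure D1:**
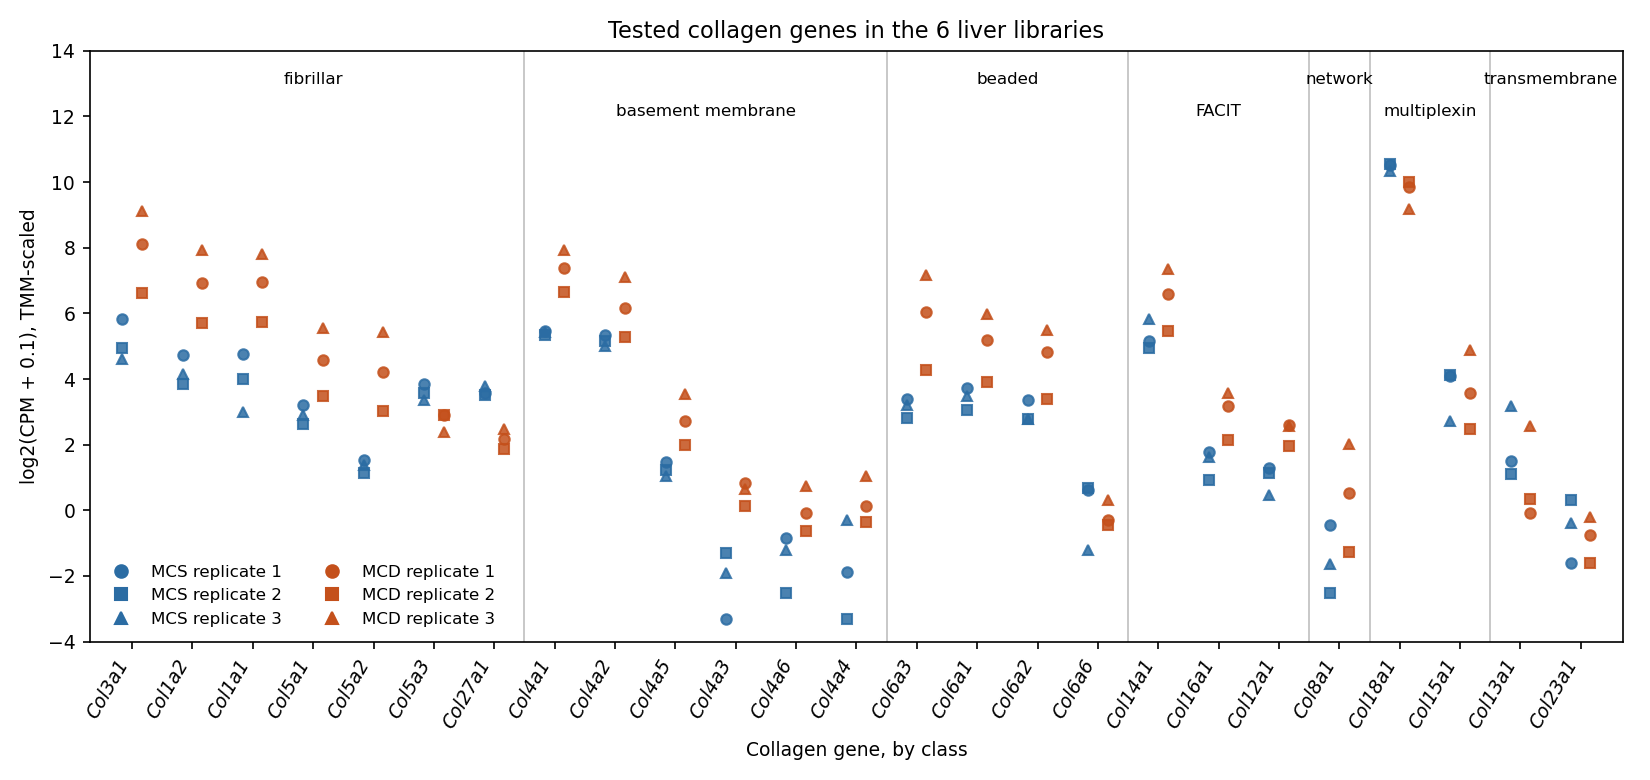
Levels of the 25 tested collagen genes, grouped by class, in each of the 6 liver libraries; the vertical axis is log2(CPM + 0.1), with CPM scaled by TMM, blue is MCS, orange is MCD and the symbol gives the replicate. Col18a1 has the highest points of all, and MCD replicate 3 (orange triangle) is the top MCD point for most genes.

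**Figure D2:**
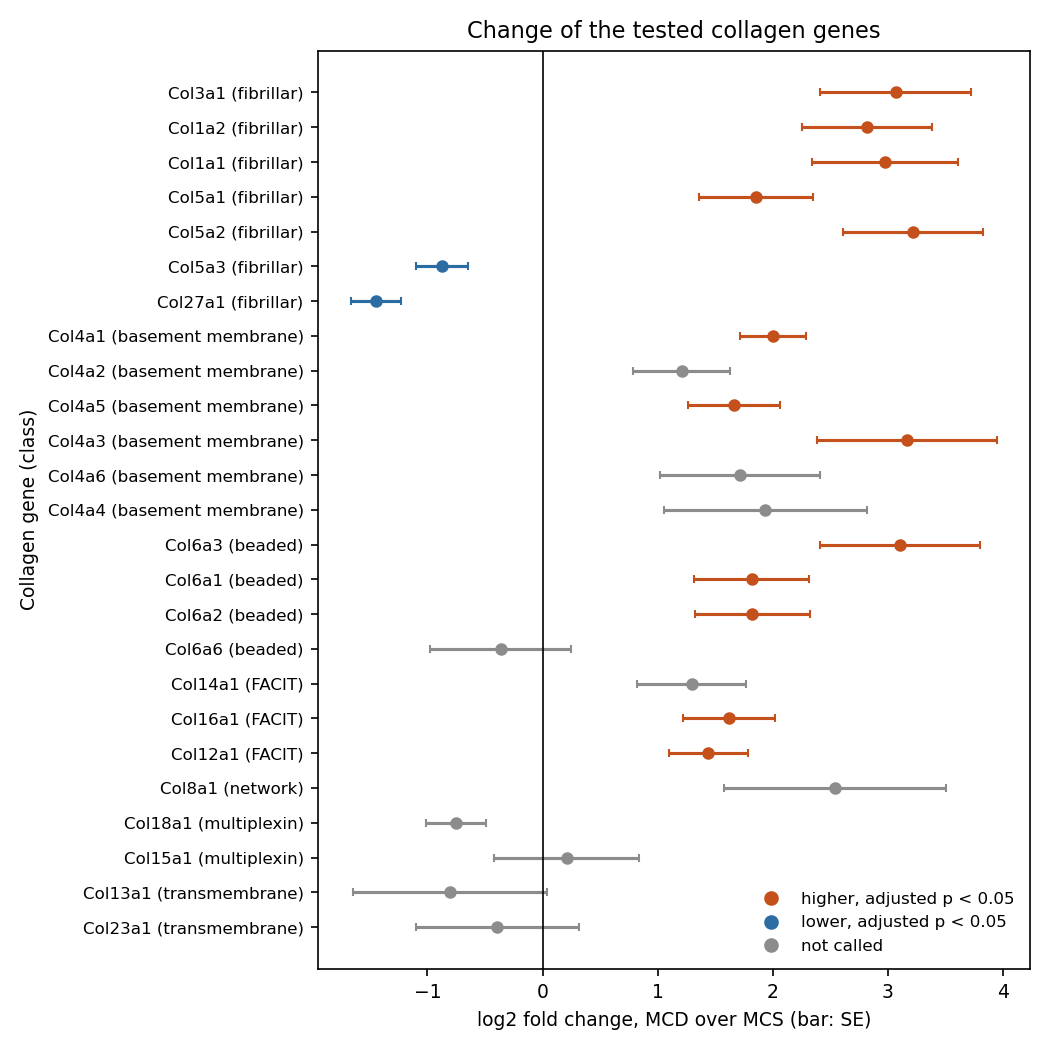
Log2 fold change, MCD over MCS, of each tested collagen gene with its standard error; orange marks the 13 genes that rose, blue the 2 that fell and grey the 10 that did not pass the test. Fibrillar genes lie at both ends of the axis, from -1.45 for Col27a1 to 3.22 for Col5a2.

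Among the fibrillar collagens, the chains of types I and III and the main chains of type V rose, while Col5a3 and Col27a1 fell. All 7 tested fibrillar genes passed the test, 5 higher and 2 lower, with a median log2 fold change of 2.82. Col3a1 (ENSMUSG00000026043), the single chain of type III collagen, stood at 56.3, 30.9 and 24.5 CPM (counts scaled to the TMM-adjusted size of each library) in MCS replicates 1 to 3 and at 279, 98.0 and 561 CPM in MCD replicates 1 to 3. Even its lowest MCD library lay above its highest MCS library. The log2 fold change of Col3a1 was 3.07 ± 0.66 (SE, n = 3 per diet), with an edgeR adjusted p of 0.0183.

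Type I collagen, the main protein of fibrous scar, is made of chains from Col1a1 and Col1a2. Col1a1 (ENSMUSG00000001506) measured 27, 16 and 7.89 CPM in MCS replicates 1 to 3 and 124, 53.3 and 223 CPM in MCD replicates 1 to 3. Col1a2 (ENSMUSG00000029661) measured 26.6, 14.2 and 17.6 CPM against 121, 51.7 and 242 CPM. Neither gene overlapped between the diets, and in both MCD replicate 2 was the lowest MCD library. The log2 fold changes were 2.97 ± 0.63 for Col1a1 (adjusted p = 0.0181, edgeR) and 2.82 ± 0.57 for Col1a2 (adjusted p = 0.0146, edgeR).

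Type V chains are minor components that start fibrils and set their width. Col5a1 (ENSMUSG00000026837) gave 9.20, 6.04 and 7.34 CPM in the MCS libraries and 24, 11 and 46.8 CPM in the MCD libraries, a log2 fold change of 1.85 ± 0.50 (adjusted p = 0.0354, edgeR). Its partner Col5a2, described here after its values were seen, gave 2.82, 2.12 and 2.48 CPM on MCS and 18.4, 8.10 and 42.9 CPM on MCD, and its log2 fold change of 3.22 ± 0.61 was the highest of the tested collagens (adjusted p = 0.0115, edgeR). The remaining type V chain went the other way. Col5a3 (ENSMUSG00000004098) fell from 14.4, 11.7 and 10.2 CPM to 7.46, 7.33 and 5.08 CPM, a log2 fold change of -0.87 ± 0.22 (adjusted p = 0.0239, edgeR). All 3 MCD libraries lay below all 3 MCS libraries for this chain, and MCD replicate 3, the highest MCD library for most collagens, was the lowest for Col5a3.

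Col27a1 (ENSMUSG00000045672) encodes a fibrillar collagen best known from cartilage. It measured 11.7, 11.3 and 13.8 CPM on MCS and 4.41, 3.57 and 5.47 CPM on MCD, without overlap, and its log2 fold change was -1.45 ± 0.22 (adjusted p = 0.00313, edgeR). Col11a2 and Col24a1 were too low to test, at 2 to 12 and 0 to 4 counts per library.

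Leaving out MCS replicate 2 ended the calls of all 5 fibrillar genes that rose (lowest adjusted p 0.0521, for Col5a2). The number was 2 without MCD replicate 1, 3 without MCD replicate 3, and 1 without replicate 3 of both diets. Scaling by library size alone, which moved the median of all genes to 0.57, ended the fall of Col5a3 (log2 fold change -0.34, adjusted p = 0.225), and on log2(TPM + 1), where that median was 0.53, neither Col5a3 nor Col27a1 passed (adjusted p = 0.583 and 0.14, limma). For Col5a3 the adjusted p (edgeR) was 0.105 when MCS replicate 1 was dropped, 0.0743 when MCS replicate 2 was, and 0.0566 when MCD replicate 1 was.

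Type IV collagen genes, the scaffold of basement membranes, had log2 fold changes above 0 in all 6 cases, and 3 of the 6 rose (median 1.83). Col4a1 (ENSMUSG00000031502), the most widely expressed chain with Col4a2, measured 44.0, 40.7 and 42.9 CPM on MCS and 168, 101 and 242 CPM on MCD. The MCS libraries were close together, and the MCD libraries were all above them. Its log2 fold change was 2.0 ± 0.28, with the smallest adjusted p among the collagens (0.0024, edgeR). Leaving out any single library left Col4a1 at 1.66 to 2.24 with an adjusted p of at most 0.0169.

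Col4a2, named after its values were seen, measured 40.6, 35.4 and 31.7 CPM on MCS and 71.3, 38.4 and 139 CPM on MCD, so that MCD replicate 2 lay among the MCS libraries. Its log2 fold change of 1.21 ± 0.43 did not pass the test (adjusted p = 0.0785, edgeR). It passed in DESeq2 (adjusted p = 0.00995), on library size (adjusted p = 0.0234), on both TPM scales (adjusted p = 0.0263 and 0.036, limma) and without MCD replicate 2 (adjusted p = 0.00268, edgeR). Col4a1 and Col4a2 are transcribed head to head on mouse chromosome 8, and their RefSeq starts overlap by 22 bases, from 11312805 to 11312826 (GRCm38.p6). The sources used here do not say that counting used strand, so reads from the shared bases cannot be told apart.

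The other type IV chains, known from the basement membranes of kidney and lung, were much lower than Col4a1 and Col4a2 in these liver libraries. Col4a5 (ENSMUSG00000031274) measured 2.65, 2.27 and 1.99 CPM on MCS and 6.52, 3.89 and 11.5 CPM on MCD (log2 fold change 1.67 ± 0.40, adjusted p = 0.0184, edgeR). Col4a3 (ENSMUSG00000079465) had 0, 4 and 3 counts in the MCS libraries and 37, 22 and 42 in the MCD libraries, with a fitted log2 fold change of 3.17 ± 0.78 (adjusted p = 0.0207, edgeR). That fold rests on 7 MCS counts, and a floor of 3 counts corresponds to 0.104 to 0.227 CPM in these libraries. Col4a6 did not overlap between diets, at 1 to 8 counts on MCS and 12 to 45 on MCD, but did not pass (1.72 ± 0.69, adjusted p = 0.101, edgeR). Col4a4 was at 0 to 13 counts on MCS and 15 to 56 on MCD (1.94 ± 0.88, adjusted p = 0.139, edgeR).

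Only Col4a1 passed without MCS replicate 1 or without MCS replicate 3, among the type IV genes. Col4a5 lost its call without any 1 of the 3 MCS libraries (highest adjusted p 0.0676), and Col4a3 when MCS replicate 1 or 3, or MCD replicate 1, was left out (highest adjusted p 0.079).

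Beaded-filament collagen VI anchors cells to the surrounding matrix, and its 3 common chains rose (median of the 4 tested beaded genes 1.82). Col6a1 (ENSMUSG00000001119) measured 13.2, 8.16 and 11.1 CPM on MCS and 36.5, 14.9 and 63.4 CPM on MCD. Col6a2 (ENSMUSG00000020241) measured 10.1, 6.72 and 6.78 CPM against 28.5, 10.4 and 44.9 CPM. Both rose by nearly the same amount, 1.82 ± 0.50 for Col6a1 (adjusted p = 0.0388, edgeR) and 1.83 ± 0.50 for Col6a2 (adjusted p = 0.0377, edgeR), and in both MCD replicate 2 stood close above the highest MCS library.

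Col6a3 (ENSMUSG00000048126), whose chain carries the cleaved fragment endotrophin, measured 10.4, 6.95 and 9.21 CPM on MCS and 66.4, 19.4 and 144 CPM on MCD. It reached a log2 fold change of 3.11 ± 0.70 (adjusted p = 0.0223, edgeR). Col6a6, an alternative chain of this type, differed by -0.36 ± 0.61 on the log2 scale (adjusted p = 0.694, edgeR), and Col6a5, another, at 3 to 11 counts on MCS and 2 to 38 on MCD, was not tested. The calls of the type VI chains were near the threshold. Dropping either MCS replicate 1 or 2, or either MCD replicate 1 or 3, left none, and dropping MCS replicate 3 left 1.

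FACIT collagens bind the surface of fibrils, and 2 of the 3 tested rose (median 1.44). Col16a1 (ENSMUSG00000040690) measured 3.34, 1.81 and 2.98 CPM on MCS and 8.99, 4.30 and 11.8 CPM on MCD (log2 fold change 1.62 ± 0.40, adjusted p = 0.0206, edgeR). Col12a1 (ENSMUSG00000032332), which links fibrils in tissues under load, measured 2.36, 2.12 and 1.27 CPM on MCS and 5.94, 3.80 and 5.82 CPM on MCD (1.44 ± 0.34, adjusted p = 0.0183, edgeR). Both kept the diets apart, and Col12a1 was one of few collagens in which MCD replicates 1 and 3 were nearly level.

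Col14a1, the most abundant FACIT gene and added after its values were seen, overlapped between the diets: 35.5, 30.7 and 57.2 CPM on MCS and 95.9, 43.8 and 164 CPM on MCD. Its log2 fold change of 1.3 ± 0.47 did not pass (adjusted p = 0.0865, edgeR). Col14a1 passed without MCD replicate 2 (adjusted p = 0.00711, edgeR) and in DESeq2 (adjusted p = 0.0105). It also passed with the replicate number as a block (adjusted p = 0.00787, edgeR), on library size (adjusted p = 0.0282, edgeR) and on both TPM scales (adjusted p = 0.0238 and 0.0402, limma). Col9a3 had 0 to 1 count on MCS and 5 to 14 on MCD, and shares exonic bases with Tcfl5 on the other strand, while Col20a1 had at most 5 counts in any library. Neither was tested in the main fit. No FACIT gene passed without MCS replicate 2 or without MCD replicate 1. Without MCD replicate 2 the genes were filtered anew and 28 collagens were tested. There 4 FACIT genes passed, among them a gene not tested in the main fit.

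The remaining classes held no gene that passed. Col8a1, a network collagen of vessel walls, measured 0.633, 0.0756 and 0.221 CPM on MCS and 1.35, 0.317 and 3.97 CPM on MCD, with MCD replicate 2 inside the MCS range (2.55 ± 0.97, adjusted p = 0.0858, edgeR). It passed in DESeq2 (adjusted p = 0.0339), on library size (adjusted p = 0.0433, edgeR) and without MCD replicate 2 (adjusted p = 0.0119, edgeR). With the replicate number as a block Col8a1 also passed (adjusted p = 0.046, edgeR). Col8a2 was at 1 to 13 counts on MCS and 5 to 32 on MCD and was not tested.

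Col18a1 (ENSMUSG00000001435), the multiplexin from which endostatin is cut, had the highest mean TPM of the collagens on both diets. It measured 1468, 1493 and 1301 CPM on MCS and 913, 1030 and 583 CPM on MCD, without overlap, yet the log2 fold change of -0.75 ± 0.26 did not pass (adjusted p = 0.0641, edgeR). On the deposited TPM scale the means were 401 ± 13.2 and 367 ± 51.4 TPM (SD, n = 3). Col18a1 passed as lower in DESeq2 (adjusted p = 0.00488), without MCD replicate 2 (adjusted p = 0.0225) and without replicate 3 of both diets (adjusted p = 0.0353). With the replicate number as a block it also passed (adjusted p = 0.0491, edgeR). The log2 fold change was only -0.24 on library size (adjusted p = 0.258, edgeR) and -0.14 on both TPM scales (adjusted p = 0.456 and 0.462, limma). The other multiplexin, Col15a1, ranged from 6.51 to 17.3 CPM on MCS and from 5.43 to 29.4 CPM on MCD (0.21 ± 0.63, adjusted p = 0.834, edgeR), and its sign turned without replicate 3 of either diet.

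The transmembrane collagens were led by Col13a1, a protein of cell junctions, at 2.76, 2.04 and 8.94 CPM on MCS and 0.854, 1.18 and 5.78 CPM on MCD. Replicate 3 was the highest library of both diets for Col13a1, and the difference did not pass (-0.81 ± 0.84, adjusted p = 0.517, edgeR). Col23a1 differed by -0.39 ± 0.71 (adjusted p = 0.714, edgeR), and its sign turned without MCS replicate 2. Col25a1, at 0 to 13 counts per library, was not tested.

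Summed over all members, collagen mRNA was higher on MCD by TPM, and the difference lay outside Col18a1, whose own mean was lower on MCD. The 32 genes summed to 501, 474 and 461 TPM in the MCS libraries and to 904, 566 and 1330 TPM in the MCD libraries, a ratio of means of 1.95. Without Col18a1 the sums were 90.5, 67.3 and 75.7 TPM against 494, 185 and 1020 TPM, a ratio of 7.27, which was 4.36 without MCD replicate 3. Neither sum overlapped between the diets. On TMM-scaled CPM, where a long gene counts more, the sum over all members overlapped between the diets and the ratio was 1.19. Without Col18a1 it was 4.18, and 2.76 when MCD replicate 3 was also left out. Scaling between libraries differed as well. Over all tested genes the log2 change had its median at 0.015 under TMM, at 0.53 on log2(TPM + 1) and at 0.65 on log2(TPM + 0.1). For Col18a1 alone, the means were 401 (MCS) and 367 (MCD) by TPM, and 1421 and 842 by CPM. How far length or scaling set the gap between the TPM and CPM ratios was not tested.

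The make-up of collagen mRNA differed between the diets, a comparison made within each library and so free of scaling between libraries. Col18a1 took 81.9%, 85.8% and 83.6% of the summed collagen TPM in the MCS libraries and 45.3%, 67.4% and 23.3% in the MCD libraries. Fibrillar genes took 6.14% ± 1.52 on MCS and 29.4% ± 14 on MCD (SD, n = 3). MCD replicate 2 kept the highest Col18a1 share of the MCD libraries and MCD replicate 3 the lowest.

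Without Col18a1 in the sum, the fibrillar share was 43.5%, 38.6% and 30.8% on MCS and 52.9%, 48.0% and 56.9% on MCD. The lowest MCD value lay above the highest MCS value. The basement membrane share was 24.8% ± 2.19 and 24.3% ± 5.04, and the beaded share 10.3% ± 1.0 and 10.2% ± 1.74, so the diets overlapped in both. The FACIT share was 18.4% ± 6.73 on MCS and 10.8% ± 1.08 on MCD without overlap. The shares are given as values, with no test.

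**Figure D3:**
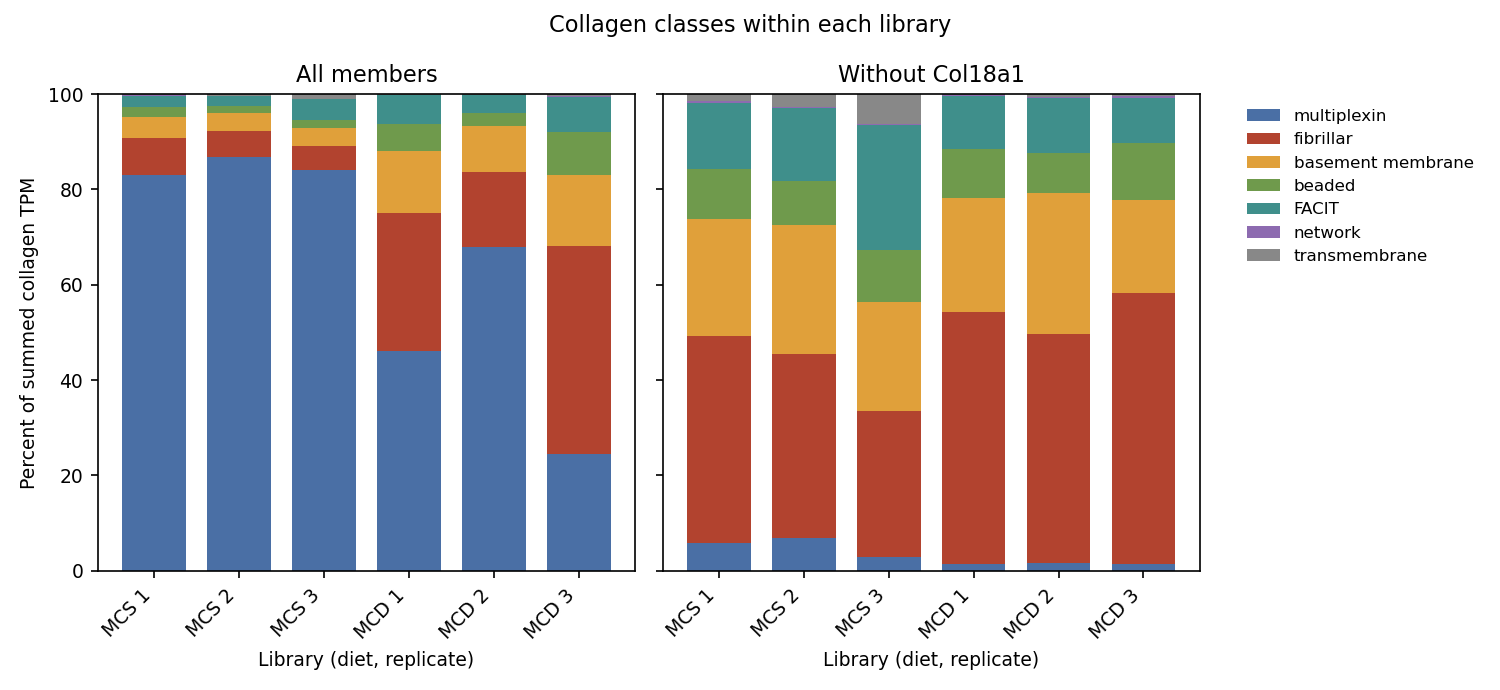
Share of each collagen class in the summed collagen TPM of every library, with all 32 members (left) and without Col18a1 (right); each bar is 1 library and adds to 100%. The blue multiplexin part, almost all Col18a1, is above 80% in the MCS libraries, and in the right panel the fibrillar part of each MCD library is larger than that of any MCS library.

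By deposited TPM the order of the collagens also differed. Col18a1 was first in 5 of 6 libraries, and in MCD replicate 3 Col3a1 (315 TPM) was just above it (309.6 TPM). On MCS, Col18a1 was followed by Col14a1 (13 ± 4.77 TPM), Col3a1 (12.2 ± 4.70) and Col4a1 (10.9 ± 1.73), which did not differ beyond their spread. On MCD, Col18a1 was followed by Col3a1 (167 TPM), Col4a1 (89.3 TPM), Col1a2 (61.4 TPM), Col1a1 (53.1 TPM) and Col14a1 (51.3 TPM). Col3a1 was above Col4a1 in all 3 MCD libraries, by the least in replicate 2 (42.6 and 42.0 TPM). Col1a1 and Col14a1 changed places among the MCD libraries.

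Of 6 ratios between chains, 3 lay apart between the diets in these libraries and 3 overlapped. The Col4a1 to Col4a2 ratio of TPM, the pair that makes the standard type IV trimer, was 1.51, 1.45 and 1.34 in the MCS libraries and 3.75, 3.88 and 2.43 in the MCD libraries. The Col5a1 to Col5a2 ratio was 5.14, 4.43 and 5.06 against 1.98, 2.95 and 1.73. The Col6a3 to Col6a1 ratio was 0.355, 0.388 and 0.488 against 0.821, 0.590 and 1.28. In these 3 ratios every MCD library lay outside the MCS range.

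The differences of the log2 ratios were 1.20 for Col4a1 to Col4a2, -1.17 for Col5a1 to Col5a2 and 1.07 for Col6a3 to Col6a1. In each the two-sided exact permutation p was 0.1, the smallest that 3 against 3 libraries allows, and 0.2 after Benjamini-Hochberg adjustment over the 6 ratios computed. As ratios of counts in place of TPM the same differences were 0.89, -1.28 and 1.09 in that order, again without overlap. The other ratios overlapped between the diets. Col6a1 to Col6a2 averaged 1.38 ± 0.234 on MCS and 1.35 ± 0.0772 on MCD (exact permutation p = 0.9), Col3a1 to Col1a1 3.37 ± 0.614 and 3.01 ± 0.343 (exact permutation p = 0.4), and Col1a1 to Col1a2 0.779 ± 0.328 and 0.894 ± 0.0562 (exact permutation p = 0.8). For Col1a1 to Col1a2, MCS replicate 3 stood alone at 0.404 while the other 5 libraries lay between 0.829 and 1.02. Without MCS replicate 3, the log2 difference of that ratio was -0.11 in place of 0.31.

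**Figure D4:**
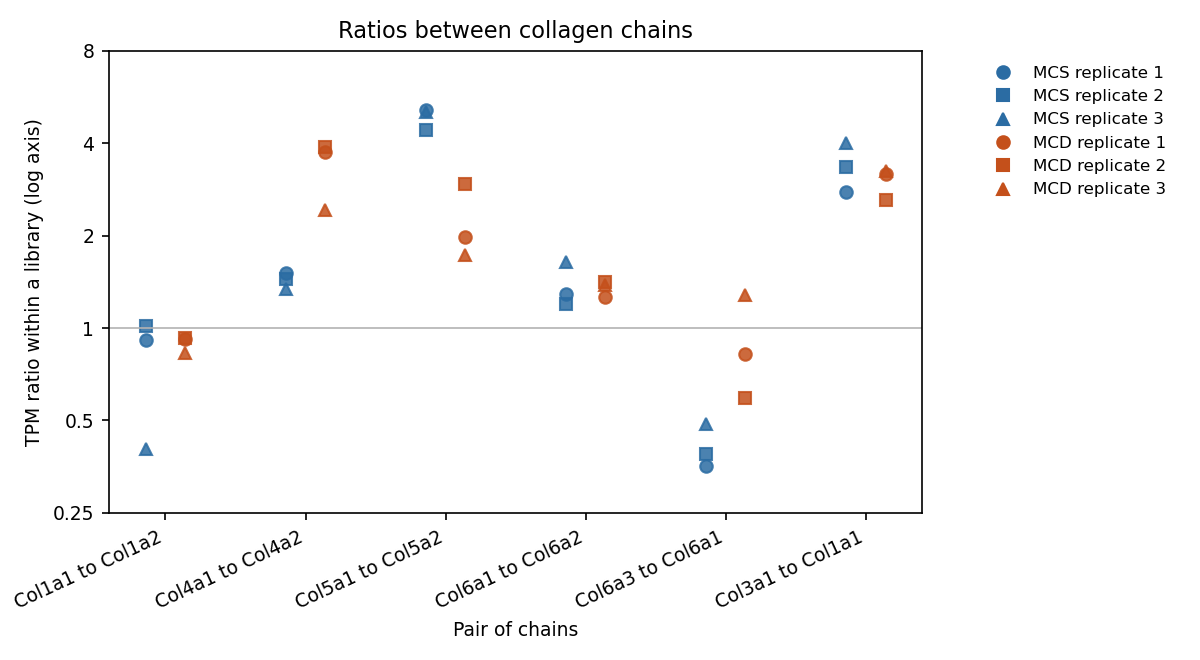
Ratios of deposited TPM between pairs of collagen chains within each library, on a log axis; blue is MCS, orange MCD, and the symbol gives the replicate. Col4a1 to Col4a2 and Col6a3 to Col6a1 are higher and Col5a1 to Col5a2 lower in all 3 MCD libraries, while Col6a1 to Col6a2 stays between 1.2 and 1.64 in all 6.

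The machinery that folds, trims, crosslinks and removes collagen was read from lists of genes that are not collagens. Of 68 tested genes in 8 lists, 25 rose and 5 fell, beside the 14.8% and 9.97% of all genes. The counts of single lists are small and are to be read beside the same shares, and no list was tested as a set. Among enzymes of chain modification and folding, 4 of 18 tested genes rose and 1 fell. Fkbp10, a prolyl isomerase of the endoplasmic reticulum, rose by 1.93 ± 0.44 on the log2 scale (adjusted p = 0.0159, edgeR). Plod2, which hydroxylates the lysines used for scar-type crosslinks, had 3.06 ± 0.83 (adjusted p = 0.0284, edgeR), and the prolyl 3-hydroxylase partner Crtap 1.11 ± 0.30 (adjusted p = 0.0279, edgeR). The fourth that rose was Serpinh1, the collagen chaperone HSP47, and the galactosyltransferase gene Colgalt2 fell (-2.75 ± 0.76, adjusted p = 0.0303, edgeR). None of the prolyl 4-hydroxylase genes tested (P4ha1, P4ha2, P4hb) passed.

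All 5 lysyl oxidase genes, whose enzymes crosslink collagen, had log2 fold changes above 0, and 3 of them rose. Loxl2 went from 3.23 ± 0.607 to 21 ± 12.1 CPM (SD, n = 3) with a log2 fold change of 2.71 ± 0.46 (adjusted p = 0.0066, edgeR), and it kept its call in every alternative fit. Lox, at 2 to 4 counts per MCS library, had a fitted 4.66 ± 1.01 (adjusted p = 0.015, edgeR) and Loxl1 2.25 ± 0.55 (adjusted p = 0.0215, edgeR).

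Genes that cut the propeptides off new collagen were split. Adamts2, an N-proteinase, and Pcolce, an enhancer of C-proteinase, rose (2.15 ± 0.51, adjusted p = 0.0239, and 1.37 ± 0.30, adjusted p = 0.0132, edgeR). Bmp1, the C-proteinase, and Pcolce2 fell (-0.86 ± 0.24, adjusted p = 0.0324, and -2.17 ± 0.50, adjusted p = 0.0158, edgeR). Both falls lost their call on library size and TPM scales, which moved the median of all genes to 0.53 to 0.65. Of 8 genes for the export of procollagen in large vesicles none rose. Mia3, the loading receptor, and the GTPase gene Sar1b passed as lower (-0.54 ± 0.16, adjusted p = 0.0397, and -0.57 ± 0.18, adjusted p = 0.0499, edgeR), but neither passed on library size or TPM scales. There the signs of Mia3 (0.027 on library size, 0.18 on TPM scales) and of Sar1b (0.084 on TPM scales) turned, with both still below the median of all genes. The 2 calls were also weak under alternatives that leave the scaling as it was. Omitting a single library ended the call of Mia3 in 3 fits and that of Sar1b in 5, and the replicate block ended both. Sar1b lost its call in limma-voom and with no count filter as well. Of 15 alternative fits, Mia3 kept its call in 8 and Sar1b in 3.

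Proteins that bind fibrils included 3 of 11 genes that rose and none that fell. The summed CPM of the 12 listed genes, in which abundant genes weigh most, was nonetheless lower on MCD. It was 4415, 4472 and 2843 CPM on MCS and 2750, 2588 and 2715 CPM on MCD, without overlap. Lum, a proteoglycan that spaces fibrils, went from 7.66 ± 1.38 to 70.5 ± 62.5 CPM (3.20 ± 0.72, adjusted p = 0.0223, edgeR). Sparc and Postn, which bind collagen during its assembly, had 2.04 ± 0.46 (adjusted p = 0.0194, edgeR) and 1.86 ± 0.51 (adjusted p = 0.0315, edgeR).

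Degradation and uptake genes moved in the same direction as most collagens, with 7 of 10 genes higher and none lower. Ctsk, a protease that cuts the triple helix, went from 0.68 ± 0.249 to 9.12 ± 3.52 CPM (3.74 ± 0.42, adjusted p = 0.00103, edgeR). The interstitial collagenase Mmp13 had 0 to 3 counts in each MCS library and a mean of 4.35 ± 1.75 CPM on MCD (fitted 5.63 ± 0.70, adjusted p = 0.00136, edgeR), and the collagen uptake receptor Mrc2 had 3.33 ± 0.52 (adjusted p = 0.00376, edgeR). Of the collagenase inhibitors 2 of 3 rose, Timp1, which had 0 to 7 counts per MCS library (fitted 4.95 ± 1.02, adjusted p = 0.0128, edgeR), and Timp2 (1.72 ± 0.48, adjusted p = 0.0397, edgeR).

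Collagen receptors rose in 4 of 8 tested cases and fell in none. Ddr1, a receptor tyrosine kinase for collagen, went from 2.37 ± 0.429 to 15.4 ± 6.28 CPM (2.70 ± 0.34, adjusted p = 0.00142, edgeR). Lair1, an inhibitory receptor of leukocytes, had 2.64 ± 0.38 (adjusted p = 0.0024, edgeR), and Itgb1, the shared beta chain of collagen-binding integrins, 0.66 ± 0.18 (adjusted p = 0.0279, edgeR). Over all lists the number that rose was 8 without MCS replicate 1, 10 without MCS replicate 2, 11 without MCD replicate 1 and 42 on library size alone. The number that fell was 0 without MCS replicate 2, without MCD replicate 1, on library size alone and on both TPM scales (log2 of TPM + 1 and of TPM + 0.1).

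Markers of the cells that can make collagen were read beside the collagens. Over all tested genes 14.8% were called higher and 9.97% lower. The small counts of called markers, here and in the next paragraph, are to be read beside these shares. The 12 stellate cell markers summed to 252, 252 and 566 CPM in the MCS libraries and 585, 308 and 1019 CPM in the MCD libraries, and 3 of 12 rose (Hand2, Pdgfrb and Cygb). Fibrillar collagen CPM per stellate marker CPM was 0.589, 0.367 and 0.149 on MCS and 0.990, 0.757 and 1.11 on MCD, without overlap. The 8 portal fibroblast markers summed to 12.7, 12.5 and 12 CPM against 42.1, 18.4 and 62.1 CPM, and 2 of the 5 tested rose (Eln and Entpd2). Per portal fibroblast marker, fibrillar collagen was 11.7, 7.42 and 7.0 on MCS and 13.8, 12.7 and 18.1 on MCD, again without overlap, and basement membrane collagen overlapped (6.57 ± 0.309 and 6.75 ± 1.034). Per stellate marker, basement membrane collagen was 0.266 ± 0.113 on MCS and 0.429 ± 0.041 on MCD (SD, n = 3), without overlap. It was also apart per sinusoidal endothelial marker (0.515 ± 0.325 and 1.86 ± 0.718) but overlapped per macrophage marker (0.144 ± 0.0199 and 0.109 ± 0.0173).

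The same order of MCD libraries, replicate 3 highest and replicate 2 lowest, held for fibrillar collagens and for the summed markers of stellate cells, portal fibroblasts, myofibroblasts and smooth muscle, macrophages, cholangiocytes and sinusoidal and vascular endothelium. It did not hold for hepatocyte markers (69328, 85522 and 51563 CPM) or mesothelial markers (2.7, 1.54 and 2.37 CPM). Per macrophage marker CPM, fibrillar collagen CPM overlapped between the diets, at 0.277, 0.170 and 0.134 on MCS and 0.290, 0.145 and 0.315 on MCD. Macrophage markers summed to 536 to 627 CPM on MCS and 1607 to 3571 CPM on MCD, with 8 of 10 higher and Clec4f lower, and cholangiocyte markers to 58.4 to 85.8 and 216 to 585 CPM, with 6 of 8 tested higher. Sinusoidal endothelial markers (106, 147 and 434 CPM on MCS, 101, 71.7 and 371 CPM on MCD) held no gene that passed among 8, and vascular endothelial markers 1 of 5 (Cd34). Replicate 3 of both diets stood apart by these endothelial sums. Of the smooth muscle markers 1 of 4 tested rose (Tagln), mesothelial markers fell in 2 of 3 (Msln and Upk3b), and hepatocyte markers, at 51563 to 93104 CPM per library, fell in 2 of 7 (Tat and Asgr1), so the tissue matches its label as liver. No marker was at 0 in all libraries. The part of cell numbers in the collagen differences was not tested.

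**Figure D5:**
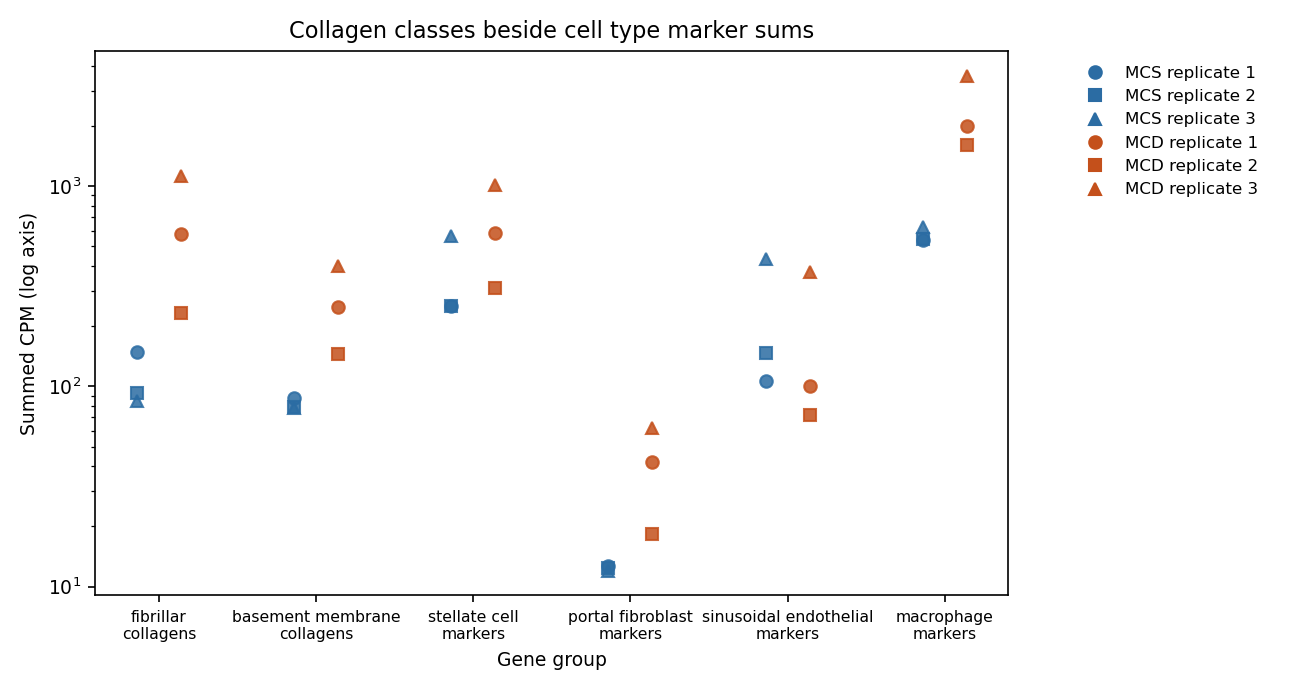
Summed CPM, on a log axis, of fibrillar and basement membrane collagens beside the marker genes of 4 cell types in each library; blue is MCS, orange MCD, and the symbol gives the replicate. Fibrillar collagens are at 84.2 to 149 CPM on MCS and 233 to 1126 CPM on MCD, while stellate markers overlap between the diets because MCS replicate 3 is at 566 CPM.

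Library depth was 16615469 to 21322771 counts, and TMM factors were 0.797 to 0.873 for MCS and 1.04 to 1.41 for MCD. A first principal component with 70.7% of the variance separated the diets, and a second with 12.3% set replicate 3 of both diets apart. Without both of these libraries, 7 collagens passed as higher and 3 as lower, and the median over the tested members was 1.19. In the authors' deposited table, whose fold changes are ratios of mean TPM, 19 of 32 members had an FDR under 0.05, all higher. The share of all genes under that FDR in the same table is not given here, so the count has no background. On the TPM scales fitted with limma, tested genes centred at 0.53 to 0.65, against 0.015 under TMM. How far such a shift bears on the direction of these 19 was not tested. In the deposited table Col4a1 had a log2 fold change of 3.03 (FDR 9.1e-13), Col3a1 of 3.78 (FDR 0.000141) and Col18a1 of -0.13 (FDR 0.534).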

How the data were processed

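The members, classes, pathway lists and marker lists were chosen with earlier results of these data known. Liver polyA RNA was measured in 6 libraries, grouped by the diet in their labels. The submitters' processing notes name GRCm39 as the build and list RSEM, StringTie 1.3.1, HISAT2 2.1.0, Bowtie2 2.2.8 and fastp 0.18.0, leaving their roles unstated. The authors deposited a count and a TPM per gene and library, mean TPM per diet, a log2 fold change, and a p-value with FDR from a test that the sources used here do not name. The authors' deposited counts are whole, but 64 values of 0 carry a nonzero TPM, and each was therefore handled as an expected count rounded before deposit, which can share reads between similar genes.

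Counts were fitted over all genes in edgeR 4.0.16 (R 4.3.3): TMM, filterByExpr with a minimum count of 10 (12599 genes), robust quasi-likelihood test with diet as its only term, Benjamini-Hochberg adjustment. SE was derived as log2 fold change over the root of F. Floors cover counting error only. Class shares and chain ratios used deposited TPM. Alternatives were library size alone, DESeq2 1.42.0 size factors and test, limma 3.58.1 (voom, and log2 of TPM plus 1 or 0.1), no filter, the replicate block, an adjusted p under 0.01, leaving out each library and, added after seeing the data, replicate 3 of both diets. The scripts were tested on simulated data. Up to 4 called genes with the highest mean TPM per class, called genes against their class's direction, and up to 3 called genes with the smallest p per pathway list and direction were named; others are marked or were named to account for every member or list. Sequences came from RefSeq tables (GRCm38.p6) and GENCODE M21 (GRCm38), matched by symbol or Ensembl ID, and no coordinate was moved between builds.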

Additional observations from a re-analysis of the deposited data

How the results depend on the processing

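All 15 called collagens kept their sign in 15 alternative fits, and RLE size factors gave the same counts of calls as TMM. Against 13 higher and 2 lower, limma-voom called 7 higher, the fit with no count filter 8 and leaving out replicate 3 of both diets 7, of which Col4a4 had no call before; an adjusted p under 0.01 left 1 higher and 1 lower; library size alone gave 1 lower and both TPM scales 0 lower. By class, fibrillar genes higher (5) became 0 at adjusted p under 0.01, 1 without replicate 3 of both diets, 3 in limma-voom and 3 with no count filter, and fibrillar genes lower (2) became 1 at adjusted p under 0.01, 1 on library size and 0 on both TPM scales. Basement membrane genes higher (3) became 1 at adjusted p under 0.01 and 5 on library size; beaded genes (3) became 0 at that threshold, 0 with no count filter, 0 without replicate 3 of both diets and 1 in limma-voom; FACIT genes (2) became 0 at that threshold and 1 in limma-voom. The network gene Col8a1 made 1 call on library size, in DESeq2 and with the replicate block, and the multiplexin Col18a1 1 lower call in DESeq2, with the replicate block and without replicate 3 of both diets. Pathway genes higher (25) became 7 at adjusted p under 0.01, 42 on library size, 41 on log2(TPM + 0.1), 39 on log2(TPM + 1) and 15 in limma-voom, and lower (5) became 0 at adjusted p under 0.01, on library size and on both TPM scales. At the stricter threshold the fall in calls follows from the threshold itself. The cause of the other shifts was not tested.

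With 1 library left out, collagens higher ranged from 2 to 17 and lower from 1 to 3; fibrillar higher from 0 to 5 and lower from 1 to 2; basement membrane higher from 1 to 4; beaded from 0 to 3; FACIT from 0 to 4; network from 0 to 1; multiplexin lower from 0 to 1; pathway genes higher from 8 to 36 and lower from 0 to 8. These fits filtered the genes anew and tested 25 to 28 collagens. Over the same omissions, the difference in transmembrane share ranged from -0.48 to -0.084 percentage points. The log2 Col1a1 to Col1a2 ratio ranged from -0.11 to 0.55 and Col6a1 to Col6a2 from -0.11 to 0.12. In ratios of counts, Col6a1 to Col6a2 was 0.00085 in place of -0.013. Without Col18a1, the summed TPM ratio was 7.27 in place of 1.95, and the share differences, in percentage points, became -0.49 for basement membrane (from 8.53), -0.056 for network (from 0.065), -0.073 for beaded (from 4.15), -7.67 for FACIT (from 2.75), -3.61 for multiplexin (from -38.4) and -3.06 for transmembrane (from -0.32), since the sum they are taken from then lacks its main part.

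Signs that turned belonged to genes without a call, except Mia3 and Sar1b. Library size and the TPM scales also moved the median of all genes, from 0.015 to 0.57, 0.53 (TPM + 1) and 0.65 (TPM + 0.1), and the signs that turned on these scales stayed below that median. Col15a1 (0.21) was -0.037 with the replicate block, and -0.99 without replicate 3 of both diets. Col6a6 was 0.24 on library size, 0.10 on log2(TPM + 1) and 0.40 on log2(TPM + 0.1); Col23a1 was 0.21, 0.049 and 0.19 on these. With 1 library left out, Col15a1 ranged from -0.64 to 0.58, Col23a1 from -0.86 to 0.15 and Col13a1 from -2.18 to 0.11. Mia3 was 0.027 on library size and 0.18 on both TPM scales, and Sar1b 0.084 on both TPM scales. Same-numbered libraries of the diets correlated at 0.063, 0.147 and 0.246 in their deviations from the diet means; 1 of the 3 was under 0.1, so the numbers were not taken as pairs. Each library correlated best with its own number except MCS replicate 1 (0.132 with MCD replicate 2), a hint from the data only; the replicate block called 15 collagens higher and 3 lower. Depth limits members under about 0.2 CPM on MCS, whose folds rest on a few counts.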
